A study of Mus musculus with 11 samples.

Results

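Myelin and mature oligodendrocyte genes were followed as a set of 29 genes of the 39017 in the count table of a study of Dicer loss in mouse forebrain. The members are a list of gene symbols, matched to the table by Ensembl gene identifier, and all 29 were found and passed the filter on low counts in both tissues. The list is by symbol and carries no measured threshold, but it was drawn up with earlier results of these data known. They were described by role: 14 structural genes of the myelin sheath, 4 genes of lipid synthesis, 5 transcription factors and 6 other genes of oligodendrocytes.

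Oligodendrocytes are the glial cells that wrap axons of the brain in myelin, a stack of tightly apposed membrane that insulates the axon and speeds the spread of action potentials. Compact myelin is held together by a few very abundant proteins and is rich in cholesterol and galactolipids, while other proteins sit at the axonal face, the outer surface or the junctions of the sheath. The cells arise from dividing precursors throughout adult life, and the factors Sox10, Olig1, Olig2, Myrf and Nkx6-2 set up and maintain their gene program.

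The study sequenced polyadenylated RNA of neocortex and of the CA1 field of the hippocampus from mice aged 13 to 14 weeks. The knockout (KO) animals carried Camk2a-Cre and 2 floxed alleles of Dicer (Dicer flox/flox), in which Dicer, the enzyme that cuts microRNA precursors, is removed in the forebrain; the genotype of the control animals was not given beyond the word control. Camk2a-Cre is known as a driver of excitatory forebrain neurons after birth, so oligodendrocytes are not the cells in which it is known to act. Neocortex was sequenced from 6 males, of which D5129, D5134 and D5135 were controls and D5130, D5132 and D5133 were KO. The CA1 libraries came from the male controls D5134 and D5135, a female control called D5138, and the KO males D5130 and D5133, so that 4 animals are present in both tissues. A library is called here by the name of its animal.

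The depth ranged from 43144097 to 58329441 gene reads in the neocortex and from 24806581 to 35684618 in the CA1. Markers of CA1 pyramidal neurons summed to 386 to 447 CPM in the CA1 controls against 142 to 169 CPM in the neocortex controls, and markers of neocortical layers to 145 to 159 CPM against 336 to 368 CPM. Dicer1, the targeted gene, did not pass in either tissue. It was counted at 59.3 to 66.5 CPM in the neocortex controls and 59.0 to 63.3 CPM in the KO libraries (log2 fold change -0.042, SE 0.062, edgeR adjusted p = 0.797), and at 68.7 to 75.2 CPM and 71.6 to 73.3 CPM in the CA1 (log2 fold change -0.0035, SE 0.068, edgeR adjusted p = 0.988). These are counts over the whole gene, in tissue that also holds cells without Cre. The summed level of 4 Y-linked genes (Ddx3y, Uty, Kdm5d and Eif2s3y) in the control D5134 stood apart, at 70.2 CPM in the neocortex and 73.5 CPM in the CA1, against 152 to 187 CPM in the other libraries from males. The CA1 library of the male KO D5133 held Xist, a transcript of female cells, at 20.9 CPM, against 0 to 3.28 CPM in the other libraries from males and 610.4 CPM in the female D5138. What these values mean for the labels was not tested, and the members called are counted below with each library left out in turn.

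The myelin and oligodendrocyte genes were lower in the CA1 of KO mice. By edgeR's quasi-likelihood test, 15 of the 29 fell, 0 rose and 14 did not pass an adjusted p of 0.05, against 3.89% of all 18274 genes tested in the CA1 that changed in either direction and 1.41% that fell. The median log2 fold change of the 29 was -0.40, beside -0.00041 over all genes tested, and 28 of the 29 values were below zero. In the neocortex 0 of the 29 passed in edgeR, against 2.71% of the 16971 genes tested there, and 0 passed in DESeq2, against 5.43%. At an unadjusted edgeR p under 0.05 there were 2 members, against 18.0% of all genes. With each neocortex library left out in turn, 0 members passed, against 0.111% (without D5133) to 2.49% (without D5135) of all genes. The neocortex median was -0.057, beside 0.0021 over all genes tested, and the values lay between -0.18 and 0.13.

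The sum over the 29 genes gives the size of the difference in each library. CPM, the unit used here, is a gene's reads in proportion to the library's scaled total. In the CA1 the sum was 3772 CPM in D5134, 4253 CPM in D5135 and 4439 CPM in D5138, the controls, against 3208.5 CPM in D5130 and 3119.9 CPM in D5133, so both KO libraries lay below every control. The control mean was 4155 ± 344 (SD, n = 3) and the KO mean 3164 ± 62.7 (SD, n = 2). In the neocortex the controls D5129, D5134 and D5135 had sums of 3497, 3671 and 3497 CPM, and D5130, D5132 and D5133, the KO animals, had 3218, 3501 and 3727 CPM. The neocortex groups overlapped, and D5133 held the highest sum of the 6 libraries there and the lowest of the 5 in the CA1. In these bulk samples, fewer oligodendrocytes and less RNA of these genes per cell cannot be told apart.

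**Figure D1:**
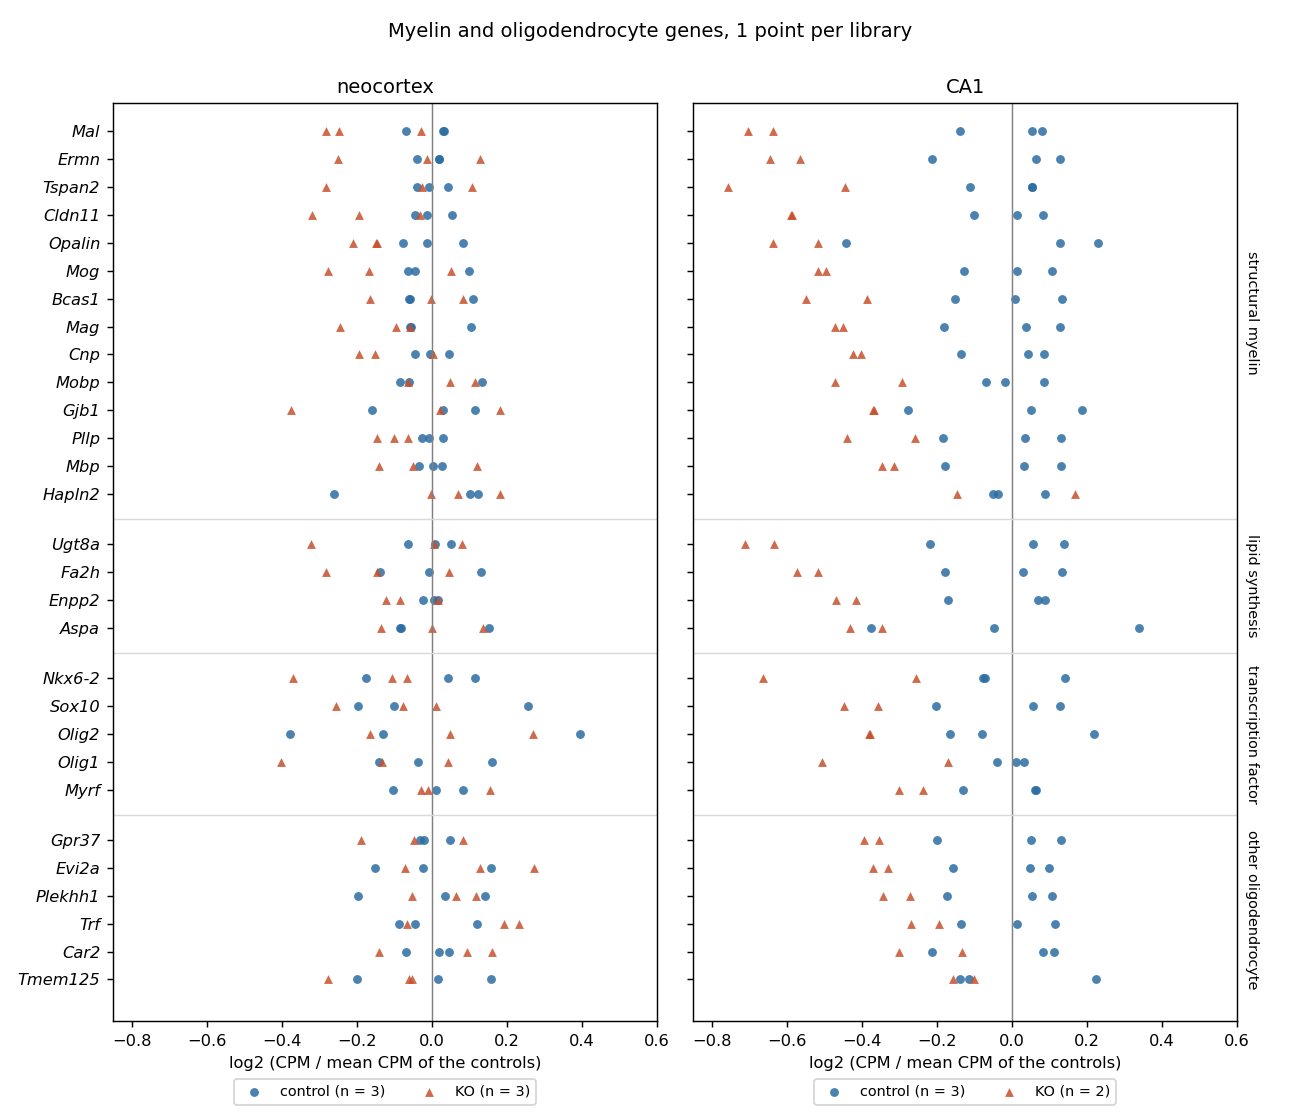
Each point is 1 library, placed by its log2 CPM of a gene relative to the mean CPM of the 3 controls of the same tissue, for the 29 genes grouped by role (rows); circles are control and triangles KO libraries. In the CA1 panel both KO triangles lie to the left of all 3 controls in 25 of 29 rows, and in the neocortex panel all 3 KO triangles do so in 2 of 29 rows.

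Without overlap between the groups, KO libraries were lower for 25 of 29 genes in the CA1, where 16.3% of all genes tested showed the same, and for 2 of 29 in the neocortex (Opalin and Pllp), where 12.4% did. No member was higher in every KO library in either tissue. The control D5134 was the lowest of the 3 CA1 controls for 26 of the 29 genes. The lower of the pair of KO libraries was D5130 for 16 genes and D5133 for 13. Each library was left out of the CA1 fit in turn, and 23 members fell without D5134, 13 without D5135, 12 without the female D5138, 9 without D5130 and 7 without D5133; an arm left with 1 library was assumed to vary like the other arm. Over all genes the share called in these fits was 4.04%, 3.06%, 1.36%, 2.11% and 1.23% in the same order. With DESeq2 the count was 23, against 5.06% of all genes, and without the filter on low counts 26, against 5.61%. The 8 members that passed in DESeq2 and not in edgeR were Opalin, Pllp, Olig1, Olig2, Myrf, Trf, Evi2a and Plekhh1.

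Levels of different genes can be compared only per length, so reads were also divided by the summed exon length (RPKM, which is CPM per kilobase of exon). In the CA1 controls the highest was Mobp, a small basic protein of compact myelin, at 130.2 ± 7.18 RPKM (SD, n = 3). Mbp, the basic protein that joins the inner faces of the myelin membrane, followed at 104 ± 11.2 RPKM, and Cnp, a phosphodiesterase of non-compact myelin, at 94.3 ± 7.51 RPKM, so that Mbp and Cnp overlapped within their SDs and Mobp lay above both. The highest of the lipid genes was Enpp2 (28.8 RPKM), of the transcription factors Olig1 (43.9 RPKM) and of the remaining genes Car2 (73.1 RPKM). Aspa was the lowest of the 29 at 2.81 RPKM. The same 4 genes, Mobp, Mbp, Cnp and Mal, led in the neocortex controls, at 105.5, 86.5, 73.9 and 70.04 RPKM. With the longest transcript as the length, Mobp, Mbp and Cnp kept the first 3 places in both tissues and Car2 took the fourth.

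Of the 14 structural genes, 10 fell in the CA1 of KO mice, 0 rose and 4 did not pass, with a median log2 fold change of -0.46. CPM values are given below in the order D5134, D5135 and D5138 for the CA1 controls and D5130 and D5133 for the KO libraries. Mal (chromosome 2, 127633226 to 127656695, minus strand, GRCm38), a proteolipid that sorts membrane into the sheath, was counted at 202, 231 and 235 CPM in control CA1, against 137 and 143 CPM in KO CA1. It fell by 0.67 (SE 0.071, edgeR adjusted p = 0.000179) on the log2 scale, which is 37.2% lower, the lowest adjusted p of the 29. Cldn11 (chromosome 3, 31149920 to 31164324, plus strand), the claudin that forms the tight junctions of central myelin, was counted at 133, 145 and 152 CPM in control CA1, against 95.2 and 95.4 CPM in KO CA1, a fall of 0.59 (SE 0.069, edgeR adjusted p = 0.000413). The KO libraries were almost equal for Cldn11 and lay well below the lowest control for both genes. Ermn (chromosome 2, 58045113 to 58052864, minus strand), a cytoskeletal protein of mature oligodendrocytes, was counted at 56.3, 71.2 and 68.2 CPM in control CA1, against 41.7 and 44.1 CPM in KO CA1, a fall of 0.61 (SE 0.095, edgeR adjusted p = 0.00354). Tspan2 (chromosome 3, 102734529 to 102801513, plus strand), a tetraspanin, stood at 32.5, 36.4 and 36.4 CPM in control CA1, against 20.8 and 25.8 CPM in KO CA1, a fall of 0.60 (SE 0.10, edgeR adjusted p = 0.00597). For both, the control D5134 was the lowest of its group and still above both KO libraries, and the KO libraries differed more for Tspan2 than for Ermn.

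Proteins of the sheath's surfaces and of active myelination followed. Mog (chromosome 17, 37010743 to 37023398, minus strand), on the outer surface of the sheath, was counted at 51.3, 56.5 and 60.3 CPM in control CA1, against 39.7 and 39.2 CPM in KO CA1, and fell by 0.51 (SE 0.082, edgeR adjusted p = 0.00362). Bcas1 (chromosome 2, 170346991 to 170427845, minus strand), a marker of oligodendrocytes that are forming myelin, was counted at 153, 171 and 187 CPM in control CA1, against 130.2 and 116 CPM in KO CA1, and fell by 0.47 (SE 0.083, edgeR adjusted p = 0.00757). Mag (chromosome 7, 30899176 to 30914873, minus strand), an adhesion protein of the membrane facing the axon, was counted at 146, 170.2 and 181 CPM in control CA1, against 119.5 and 121 CPM in KO CA1, and fell by 0.46 (SE 0.081, edgeR adjusted p = 0.00699). All of these had both KO libraries below the lowest control, which was D5134. Cnp (chromosome 11, 100574904 to 100591729, plus strand) stood at 312, 353 and 364 CPM in control CA1, against 256 and 259 CPM in KO CA1, and fell by 0.41 (SE 0.067, edgeR adjusted p = 0.00357).

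The 2 genes with the highest level per length had the smallest falls among the structural genes that passed, and the difference from the others was not tested. Mobp (chromosome 9, 120149707 to 120181484, plus strand) was counted at 849.6, 881 and 946 CPM in control CA1, against 728 and 643 CPM in KO CA1, a fall of 0.38 (SE 0.064, edgeR adjusted p = 0.00524), or 23.2%. Mbp (chromosome 18, 82475146 to 82585637, plus strand) was counted at 778, 902 and 965 CPM in control CA1, against 708 and 693 CPM in KO CA1, a fall of 0.33 (SE 0.077, edgeR adjusted p = 0.0362), or 20.5%. For Mbp the groups did not overlap, but the gap between D5134 and the higher KO library was small beside the spread of the controls. Mbp passed in 1 of the 5 fits that left a library out, the one without D5134. Of the other structural genes, Mag did not pass without D5130 or without D5133, Ermn and Tspan2 without D5130, and Mobp and Bcas1 without D5133, at edgeR adjusted p of 0.0522 to 0.100.

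The other 4 structural genes did not pass. Opalin, a transmembrane protein of oligodendrocytes, was counted at 16.05, 25.6 and 23.9 CPM in control CA1, against 14.03 and 15.3 CPM in KO CA1, a difference of -0.58 (SE 0.18, edgeR adjusted p = 0.130), and the control D5134 lay close to the KO libraries. Gjb1, a connexin of gap junctions, differed by -0.37 (SE 0.15, edgeR adjusted p = 0.218). Pllp, the proteolipid plasmolipin, was counted at 32.7, 38.1 and 40.7 CPM in control CA1, against 31.1 and 27.4 CPM in KO CA1, a difference of -0.35 (SE 0.10, edgeR adjusted p = 0.0790). Hapln2, a link protein of the matrix at nodes of Ranvier, was the only member with a value above zero in the CA1, at 0.023 (SE 0.11, edgeR adjusted p = 0.949). Its KO libraries stood at 20.5 and 16.5 CPM on either side of its controls, which lay between 17.6 and 19.4 CPM.

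Of the 4 genes of lipid synthesis, 3 fell in the CA1 and 1 did not pass, with a median of -0.50. Ugt8a (chromosome 3, 125865271 to 125938619, minus strand), which makes galactosylceramide, the main glycolipid of myelin, was counted at 51.1, 65.5 and 61.8 CPM in control CA1, against 36.3 and 38.3 CPM in KO CA1. It fell by 0.68 (SE 0.098, edgeR adjusted p = 0.00225), or 37.4%, the largest fall of the 29. Fa2h (chromosome 8, 111345135 to 111393824, minus strand), which hydroxylates the fatty acids of these lipids, was counted at 34.2, 42.4 and 39.5 CPM in control CA1, against 27.01 and 25.98 CPM in KO CA1, and fell by 0.55 (SE 0.098, edgeR adjusted p = 0.00701). Both enzymes thus had the same pattern as the sheath genes, with D5134 lowest among the controls and no overlap. Enpp2 (chromosome 15, 54838901 to 54952892, minus strand), or autotaxin, which releases lysophosphatidic acid, was counted at 148, 174 and 177 CPM in control CA1, against 120.2 and 125 CPM in KO CA1, and fell by 0.44 (SE 0.077, edgeR adjusted p = 0.00633). Enpp2 is also made by choroid plexus, whose 5 markers summed to 20.7 to 29.2 CPM in the CA1 controls and 18.6 to 21.6 CPM in the KO libraries. Most of that sum was Kl, at 16.5 to 26.4 CPM in the controls and 18.1 and 17.5 CPM in D5130 and D5133. Ttr reached at most 2.88 CPM and Folr1, Clic6 and Kcne2 at most 0.606 CPM in any library. The part of choroid plexus in the fall of Enpp2 was not tested. Fa2h did not pass without D5133 (edgeR adjusted p = 0.0726) and Enpp2 without D5130 or without D5133 (0.0697 and 0.0536). Aspa, which frees acetate from N-acetylaspartate for lipid synthesis, had a difference of -0.40 (SE 0.18, edgeR adjusted p = 0.286), with controls between 12.9 and 21.1 CPM that overlapped the KO libraries at 12.4 and 13.1 CPM.

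The genes Mal, Cldn11, Ugt8a, Cnp and Mog fell in every one of the 5 CA1 fits that left out a library. Their promoters are shown because these members moved together: each line gives bases from the 250 before RefSeq's transcription start on GRCm38.p6, written 5′ to 3′ on the gene's strand, with motif matches in capitals. RefSeq's start is also the GENCODE gene start for Mal, Cldn11 and Mog. For Ugt8a it lies 33 bases before the GENCODE start, and for Cnp 35 bases inside the GENCODE gene, so the Cnp line stops at the GENCODE start, after 215 bases. A RefSeq promoter was matched for 19 of the 29 members; Bcas1, Car2, Enpp2, Evi2a, Fa2h, Mbp, Myrf, Olig1, Sox10 and Trf were not matched. Both strands were searched for motifs of known factors of these cells and of core promoters. SOX factors were read as ACAAAG, with ACAATG as the other form. The MYRF motif was read as CTGGCAC, with CTGGTAC as its other form. The letters GGGCGG stood for SP1, and the TATA box was read as TATAAA. No motif is contained in another.
Mal (chr2:127656696-127656945, minus strand): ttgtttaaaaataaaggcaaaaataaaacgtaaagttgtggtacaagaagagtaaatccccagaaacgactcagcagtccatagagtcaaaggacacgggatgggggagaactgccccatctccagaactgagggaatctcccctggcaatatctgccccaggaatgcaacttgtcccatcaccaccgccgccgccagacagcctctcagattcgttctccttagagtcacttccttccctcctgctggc
Cldn11 (chr3:31149670-31149919, plus strand): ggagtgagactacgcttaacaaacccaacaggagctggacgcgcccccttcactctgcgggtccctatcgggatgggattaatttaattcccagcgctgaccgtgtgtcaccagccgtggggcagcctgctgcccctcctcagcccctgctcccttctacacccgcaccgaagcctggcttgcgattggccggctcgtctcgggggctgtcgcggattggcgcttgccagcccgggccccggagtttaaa
Ugt8a (chr3:125938653-125938902, minus strand): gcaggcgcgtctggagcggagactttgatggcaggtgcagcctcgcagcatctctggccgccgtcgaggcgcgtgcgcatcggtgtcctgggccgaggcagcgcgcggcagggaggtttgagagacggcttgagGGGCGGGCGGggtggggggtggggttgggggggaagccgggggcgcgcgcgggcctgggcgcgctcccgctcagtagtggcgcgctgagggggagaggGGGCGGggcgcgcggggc
Cnp (chr11:100574689-100574903, plus strand): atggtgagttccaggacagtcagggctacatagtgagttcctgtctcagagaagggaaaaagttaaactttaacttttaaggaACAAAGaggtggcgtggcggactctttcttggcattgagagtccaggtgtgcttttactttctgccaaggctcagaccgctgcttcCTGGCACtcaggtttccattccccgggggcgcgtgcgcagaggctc
Mog (chr17:37023399-37023648, minus strand): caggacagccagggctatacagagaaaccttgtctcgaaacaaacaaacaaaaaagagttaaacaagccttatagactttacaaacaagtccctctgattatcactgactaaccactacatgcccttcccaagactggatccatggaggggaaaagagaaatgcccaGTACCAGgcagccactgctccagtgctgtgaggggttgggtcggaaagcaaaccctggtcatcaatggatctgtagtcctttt

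The Mal and Cldn11 windows held none of these letters. The Ugt8a window held GGGCGG starting 116, 112 and 18 bases before RefSeq's start, the first and second of which overlap, in a sequence with 76.8% G and C. Cnp held ACAAAG 167 bases and CTGGCAC 81 bases before the start and, in the stretch inside the GENCODE gene that is not printed, the SP1 letters on the other strand at 26 and 8 bases, and Mog held the CTGGTAC letters on the other strand at 83 bases. Over the matched members, the SOX letters were present in 9 of 19 promoters (47.4%) beside 28.2% of all 27025 genes with a promoter. The MYRF letters were present in 4 of 19 (21.1%) beside 6.79%, the SP1 letters in 36.8% beside 35.4% and the TATA letters in 15.8% beside 14.3%. These are matches of letters and not sites of binding.

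Of the 5 transcription factors, 1 fell in the CA1, 0 rose and 4 did not pass, although all 5 values were below zero, with a median of -0.38. Sox10 (chromosome 15, 79154908 to 79165240, minus strand), which holds oligodendrocyte identity and drives myelin genes, was counted at 45.3, 56.9 and 54.2 CPM in control CA1, against 40.7 and 38.2 CPM in KO CA1, and fell by 0.40 (SE 0.095, edgeR adjusted p = 0.0312). Sox10 passed in 1 of the 5 fits that left a library out, the one without D5134. Olig1 (chromosome 16, 91269772 to 91271933, plus strand), a factor of the whole lineage, was counted at 92.3, 97.1 and 95.6 CPM in control CA1, against 84.4 and 66.8 CPM in KO CA1, a difference of -0.33 (SE 0.087, edgeR adjusted p = 0.0553). The KO library D5133 was the lowest for Olig1 and D5130 lay nearer to the controls, which were close together. Nkx6-2 (chromosome 7, 139579376 to 139582797, minus strand), a homeodomain factor of mature oligodendrocytes, was counted at 11.4, 13.2 and 11.3 CPM in control CA1, against 10.00 and 7.53 CPM in KO CA1, a difference of -0.44 (SE 0.15, edgeR adjusted p = 0.124). For Nkx6-2 both KO libraries were below the controls, with D5133 the lowest. Olig2, the partner of Olig1, was counted at 33.9, 26.03 and 27.6 CPM in control CA1, against 22.5 and 22.4 CPM in KO CA1, a difference of -0.38 (SE 0.11, edgeR adjusted p = 0.0790). Myrf, the factor that switches on the myelin genes, was counted at 69.8, 79.7 and 79.8 CPM in control CA1, against 64.8 and 61.96 CPM in KO CA1, a difference of -0.27 (SE 0.076, edgeR adjusted p = 0.0650). The 5 factors did not overlap between the groups. The median of the factors was -0.26 without D5133 and -0.45 without D5130.

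Of the 6 other oligodendrocyte genes, 1 fell in the CA1 and 5 did not pass, with a median of -0.27. Gpr37 (chromosome 6, 25665878 to 25690729, minus strand), a receptor of differentiating oligodendrocytes, was counted at 66.7, 83.97 and 79.5 CPM in control CA1, against 58.4 and 60.01 CPM in KO CA1, and fell by 0.38 (SE 0.089, edgeR adjusted p = 0.0331). It passed in 1 of the 5 fits that left a library out, the one without D5134. Evi2a (chromosome 11, 79526560 to 79530609, minus strand), a membrane protein encoded within the gene Nf1, was counted at 23.8, 27.5 and 28.5 CPM in control CA1, against 20.6 and 21.1 CPM in KO CA1, a difference of -0.35 (SE 0.099, edgeR adjusted p = 0.0656). Trf (chromosome 9, 103204001 to 103230444, minus strand), the iron carrier transferrin, was counted at 194, 215 and 231 CPM in control CA1, against 177 and 186 CPM in KO CA1, a difference of -0.23 (SE 0.072, edgeR adjusted p = 0.0930). For Evi2a and Trf the KO libraries were below every control, by a small margin. Car2 (chromosome 3, 14886273 to 14900770, plus strand), the carbonic anhydrase of oligodendrocytes, was counted at 152, 191 and 187 CPM in control CA1, against 144 and 161 CPM in KO CA1, a difference of -0.22 (SE 0.095, edgeR adjusted p = 0.277), and its KO library D5133 lay above the control D5134. Plekhh1 was counted at 40.3, 47.2 and 48.9 CPM in control CA1, against 35.8 and 37.7 CPM in KO CA1, a difference of -0.31 (SE 0.091, edgeR adjusted p = 0.0776), and its groups did not overlap. Tmem125, whose groups overlapped, differed by -0.13 (SE 0.16, edgeR adjusted p = 0.739).

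Some of these genes share exon sequence with a neighbour. An overlap on the same strand matters in both tissues, and an overlap on the opposite strand matters in the unstranded CA1 libraries. In the stranded neocortex libraries the latter matters only if the counting ignored the strand, and its strand setting is not given. Exons of Cnp overlap those of Dnajc7, Ermn those of Galnt5, Plekhh1 those of Pigh, Nkx6-2 those of Inpp5a and Pllp those of the antisense gene Gm45767, each on the opposite strand. Noncoding genes on the opposite strand also overlap Bcas1 (Bcas1os1 and Bcas1os2), Enpp2 (Gm26684), Olig1 (Gm15966) and Tspan2 (Tspan2os). On the same strand, Trf shares exons with Gm20425, Evi2a with Evi2 and Mobp with Gm38642, the last over 79 bases. Reads in the shared stretches cannot be assigned to 1 gene in the libraries where the overlap matters.

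**Figure D2:**
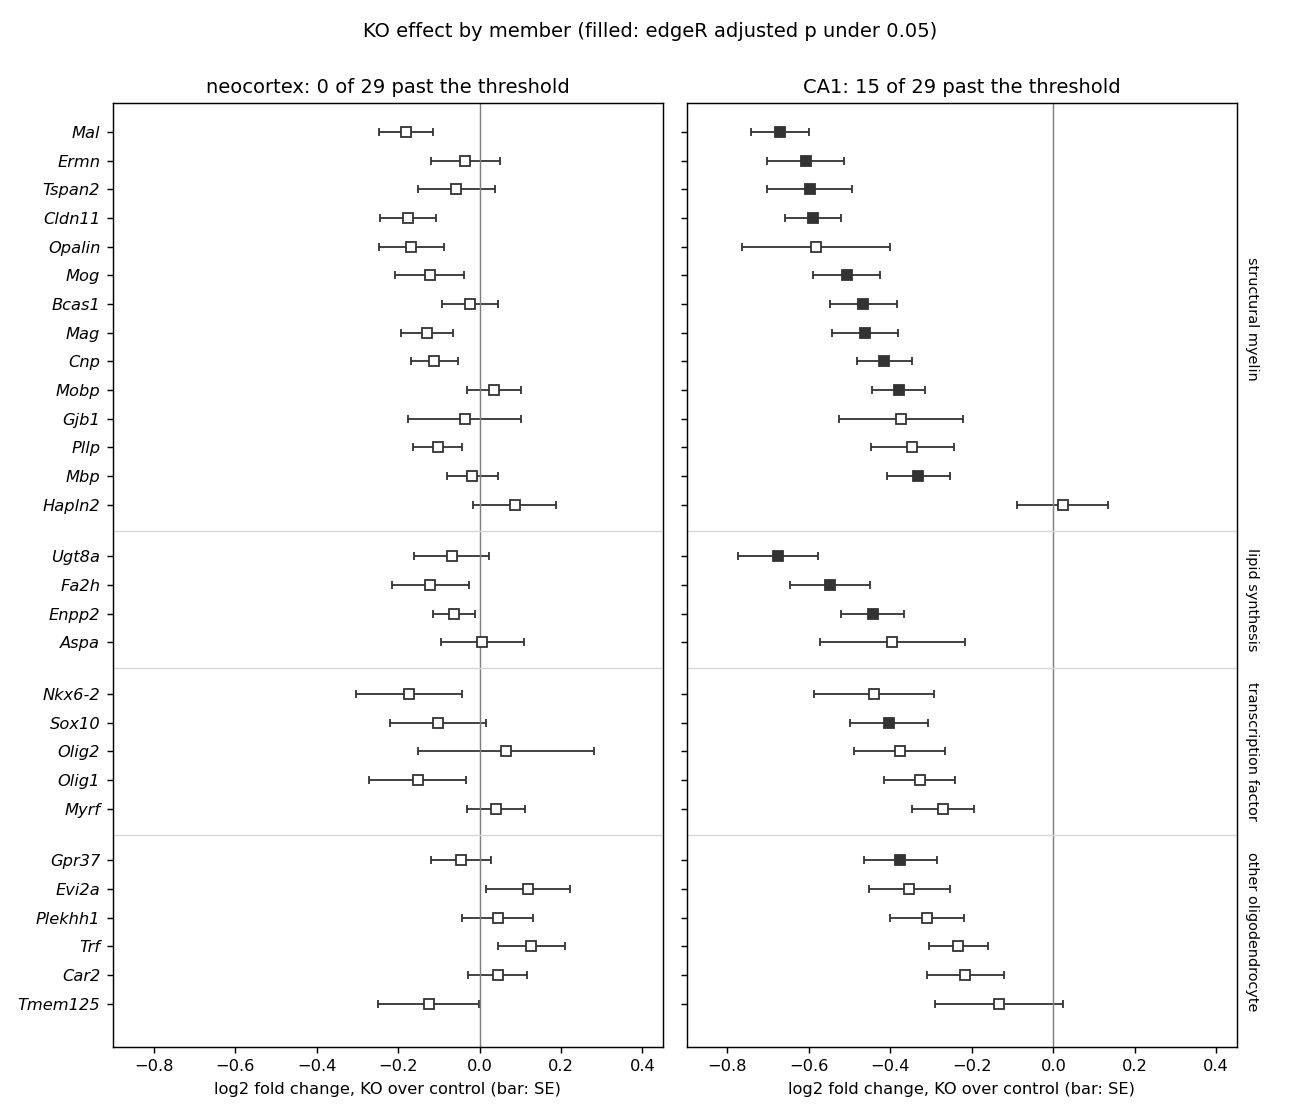
Squares give the log2 fold change of KO over control for each of the 29 genes, grouped by role, with bars of 1 SE, in the neocortex (left) and the CA1 (right); filled squares have an edgeR adjusted p under 0.05. In the CA1, 15 squares are filled, all to the left of zero, and in the neocortex 0 are filled and the values lie between -0.18 and 0.13.

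In the neocortex the same genes showed small differences. CPM values are given in the order D5129, D5134 and D5135 for the controls and D5130, D5132 and D5133 for the KO libraries. The structural genes had a median log2 fold change of -0.080, and Mal and Cldn11 were the only members at an unadjusted p under 0.05. Mal was counted at 199, 199 and 186 CPM in control neocortex, against 164, 160.2 and 191 CPM in KO neocortex, a difference of -0.18 (SE 0.067, edgeR adjusted p = 0.179). Cldn11 was counted at 110.5, 116 and 108 CPM in control neocortex, against 97.5, 89.4 and 109 CPM in KO neocortex, a difference of -0.18 (SE 0.069, edgeR adjusted p = 0.203). For both, D5130 and D5132 lay below the controls and D5133 among them. Mog was counted at 44.9, 49.7 and 44.4 CPM in control neocortex, against 41.3, 38.2 and 48.1 CPM in KO neocortex. Mag was counted at 147, 165 and 148 CPM in control neocortex, against 129, 144 and 147 CPM in KO neocortex. Cnp was counted at 268, 278 and 260.4 CPM in control neocortex, against 235, 242 and 269 CPM in KO neocortex. Their differences were -0.12, -0.13 and -0.11 in that order, and D5133 reached into the controls for each of them.

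The remaining structural genes that fell in the CA1 were nearer to zero in the neocortex. Mbp was counted at 734, 715 and 747 CPM in control neocortex, against 665, 708 and 797 CPM in KO neocortex, a difference of -0.018 (SE 0.062, edgeR adjusted p = 0.928). Mobp was counted at 694, 793 and 682 CPM in control neocortex, against 692, 748 and 783 CPM in KO neocortex, a difference of 0.035 (SE 0.066, edgeR adjusted p = 0.844). Both KO groups overlapped their controls. Ermn was counted at 49.1, 47.2 and 49.2 CPM in control neocortex, against 40.8, 48.1 and 53.03 CPM in KO neocortex. Tspan2 was counted at 22.1, 22.6 and 23.4 CPM in control neocortex, against 22.3, 18.7 and 24.5 CPM in KO neocortex. Bcas1 was counted at 160.5, 180.4 and 160.1 CPM in control neocortex, against 149, 177 and 167 CPM in KO neocortex. Their differences were -0.036, -0.057 and -0.023 in that order, and 1 KO library lay below the controls for each, D5130 for Ermn and Bcas1 and D5132 for Tspan2.

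The lipid genes had a neocortex median of -0.065. Ugt8a was counted at 47.5, 45.2 and 48.99 CPM in control neocortex, against 37.8, 49.9 and 47.4 CPM in KO neocortex, a difference of -0.069. Fa2h was counted at 29.7, 27.2 and 32.7 CPM in control neocortex, against 24.6, 26.99 and 30.9 CPM in KO neocortex, a difference of -0.12 (SE 0.094, edgeR adjusted p = 0.564). Enpp2 was counted at 239, 234 and 241 CPM in control neocortex, against 218, 224 and 241 CPM in KO neocortex, a difference of -0.062 (SE 0.051, edgeR adjusted p = 0.584). The lowest library was D5130 for each of the 3 enzymes. The transcription factors had a median of -0.10. Nkx6-2 was counted at 6.28, 7.30 and 7.68 CPM in control neocortex, against 5.49, 6.77 and 6.59 CPM in KO neocortex, a difference of -0.17 (SE 0.13, edgeR adjusted p = 0.547). Olig1 was counted at 82.3, 94.4 and 76.6 CPM in control neocortex, against 63.9, 86.96 and 77.1 CPM in KO neocortex, a difference of -0.15 (SE 0.12, edgeR adjusted p = 0.575). Sox10 was counted at 37.8, 35.4 and 48.4 CPM in control neocortex, against 33.98, 38.4 and 40.9 CPM in KO neocortex, a difference of -0.10. The groups overlapped for all 3, and the control D5135 held the highest Sox10 level.

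The other oligodendrocyte genes had a neocortex median above zero, at 0.045. Trf was counted at 186, 209 and 181 CPM in control neocortex, against 184, 226 and 219.7 CPM in KO neocortex, a difference of 0.13 (SE 0.082, edgeR adjusted p = 0.476). Evi2a was counted at 20.5, 23.2 and 18.7 CPM in control neocortex, against 19.8, 22.8 and 25.1 CPM in KO neocortex, a difference of 0.12 (SE 0.10, edgeR adjusted p = 0.608). Both were higher in the KO libraries D5132 and D5133 than in the median control, and D5130 lay among the controls. Gpr37 was counted at 49.9, 49.6 and 52.4 CPM in control neocortex, against 44.4, 49.1 and 53.7 CPM in KO neocortex, a difference of -0.045. Car2 was counted at 152, 162 and 164 CPM in control neocortex, against 145, 178 and 169.9 CPM in KO neocortex, a difference of 0.044. None of these 4 separated the groups. The ERCC spike-in RNAs divide the neocortex libraries into a set of D5129, D5130 and D5132 and a set of D5133, D5134 and D5135. Within the first set the median of the 29 was -0.10, within the second 0.026, and with the set as a term -0.010. With the set as a term 0 members passed, against 1.13% of all genes. Scaling by the spike-ins moved the median of all genes to 1.06, and the members lay at -0.042 relative to it.

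Whether the KO effect differed between the tissues was tested in a single fit of all 11 libraries with an interaction term. The neocortex libraries were stranded and the CA1 libraries unstranded, so tissue and library type cannot be told apart in it. The CA1 effect minus the neocortex effect had a median of -0.36 over the 29 genes, and all 29 values were below zero. By edgeR 0 of the 29 passed, against 0.0935% of the 19256 genes tested. At an unadjusted edgeR p under 0.05 there were 19 members, against 9.51% of all genes. In DESeq2 7 members passed, against 0.826% of all genes, and without the filter on low counts 13, against 0.869%. The smallest adjusted p was that of Mal, with a difference of -0.49 (SE 0.10, edgeR adjusted p = 0.0959). With the animal as a replicate block, 2 members passed, against 0.592% of all genes. They were Mal at -0.51 (edgeR adjusted p = 0.030) and Tspan2 at -0.60 (edgeR adjusted p = 0.0455). The median in that fit was -0.28, and only the 4 animals with both tissues bear on it. Without the CA1 control D5134 and with no block, 2 members passed as well, against 0.161% of all genes. In the edgeR fit given first, with the filter and no block, the KO effect was not shown to differ between the tissues for any member. Which members passed in the other fits depended on the setting.

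The animals that gave both tissues allow the CA1 level to be set against the neocortex level of the same brain. These levels come from unstranded and stranded libraries, in that order. The median log2 ratio of CA1 to neocortex CPM over the 29 genes was 0.046 in the control D5134 and 0.34 in the control D5135, and -0.017 in the KO D5130 and -0.25 in the KO D5133. The same median over all genes lay between 0.019 and 0.034 in these animals. The ratio was below zero for 12 and 5 of the 29 genes in the controls and for 16 and 24 in the KO animals. Both KO animals lay below both controls for 17 of the 29 genes, where 21.5% of all genes showed the same. For Mal the log2 ratio stood at 0.022 and 0.31 in the controls D5134 and D5135 and at -0.26 and -0.42 in the KO animals D5130 and D5133. For Tspan2 it stood at 0.52 and 0.64 in the controls D5134 and D5135 and at -0.10 and 0.075 in the KO animals D5130 and D5133. For Olig1 the order was mixed, at -0.032 and 0.34 in the controls D5134 and D5135 and at 0.40 and -0.21 in the KO animals D5130 and D5133. With 2 animals a group, an exact permutation test cannot reach 0.05, and none was made.

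**Figure D3:**
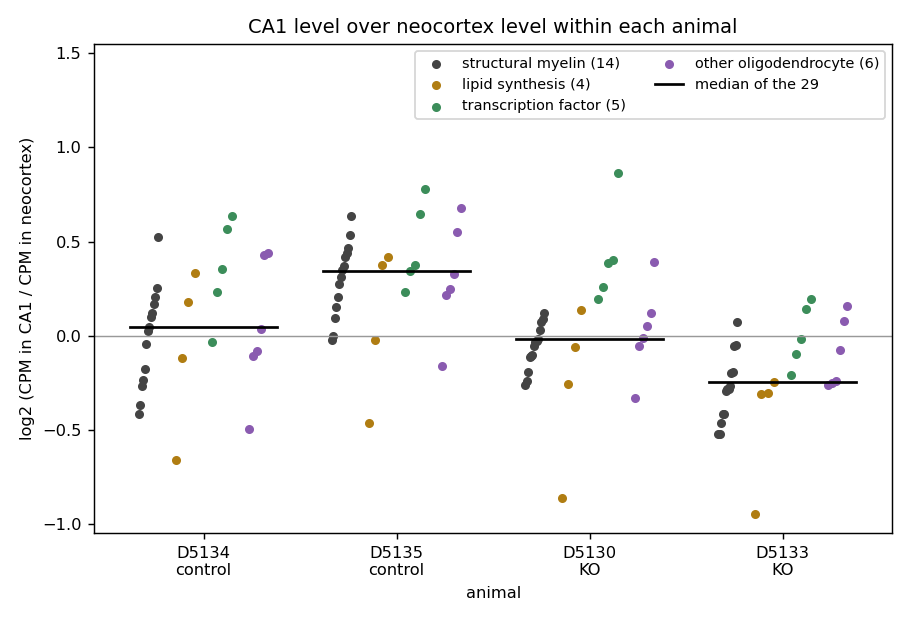
Points give the log2 ratio of CA1 CPM to neocortex CPM for each of the 29 genes within each of the 4 animals that gave both tissues, coloured by role; the black line is the median of the 29. The medians are 0.046 and 0.34 in the controls D5134 and D5135 and -0.017 and -0.25 in the KO animals D5130 and D5133.

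Other genes of the oligodendrocyte lineage were read from lists outside the 29. Of 31 further genes of mature oligodendrocytes, 5 fell in the CA1, 0 rose and 26 did not pass, with a median of -0.27, and 0 of 31 passed in the neocortex. Over all genes tested, 3.89% were called in the CA1 and 2.71% in the neocortex. The connexin Gjc3 was counted at 56.96, 51.8 and 57.8 CPM in control CA1, against 39.4 and 41.9 CPM in KO CA1, with a fall of 0.45 (SE 0.078, edgeR adjusted p = 0.00597). Tmem88b stood at 60.7, 74.96 and 73.1 CPM in control CA1, against 44.6 and 47.5 CPM in KO CA1, and fell by 0.60 (SE 0.091, edgeR adjusted p = 0.00292). Tppp, a tubulin-binding protein, fell by 0.25 (SE 0.064, edgeR adjusted p = 0.0398). No KO library reached its controls for these 3 genes. The count was 10 without D5134 (4.04% of all genes called) and with DESeq2 (5.06%) and 13 without the filter on low counts (5.61%). It was 2 without D5135 (3.06%) or D5138 (1.36%).

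Of 18 measured genes of precursors and newly forming oligodendrocytes, 1 fell in the CA1 and 0 rose, with a median of -0.13, and 0 passed in the neocortex. A count of 1 of 18 is near the 3.89% called over all genes in the CA1. Enpp6, a phosphodiesterase of newly forming oligodendrocytes, was counted at 5.30, 7.40 and 6.60 CPM in control CA1, against 2.81 and 2.91 CPM in KO CA1, and fell by 1.18 (SE 0.19, edgeR adjusted p = 0.00357). The count on this list was 1 in each of the 5 fits that left a library out. Enpp6 was counted at 4.32, 3.51 and 5.84 CPM in control neocortex, against 3.32, 4.46 and 4.81 CPM in KO neocortex, a difference of -0.12 (SE 0.20, edgeR adjusted p = 0.824). The Enpp6 level in the CA1 was thus lower in both KO libraries than in any control, while the neocortex groups overlapped. Pdgfra, the growth factor receptor that marks the precursors, was counted at 57.2, 58.03 and 57.3 CPM in control CA1, against 51.4 and 52.1 CPM in KO CA1, a difference of -0.15 (SE 0.067, edgeR adjusted p = 0.254). The difference between the precursor and the mature lists was not tested.

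The enzymes of cholesterol synthesis supply the main lipid of myelin but act in all cells. Of 18, 2 fell in the CA1, Sqle by 0.35 (SE 0.070, edgeR adjusted p = 0.0126) and Hmgcs1 by 0.26 (SE 0.057, edgeR adjusted p = 0.0229), and 3 fell in the neocortex, Fdps by 0.44 (SE 0.070, edgeR adjusted p = 0.00874), Mvk by 0.41 (SE 0.080, edgeR adjusted p = 0.0217) and Fdft1 by 0.27 (SE 0.063, edgeR adjusted p = 0.0437). The medians were -0.22 in the CA1 and -0.21 in the neocortex. Over all genes tested, 3.89% were called in the CA1 and 2.71% in the neocortex. The CA1 count was 0 without D5138 (1.36% of all genes called) and at most 3, without the filter (5.61%). The neocortex count was 0 without D5133 (0.111% of all genes called) and with ERCC scaling (0.0236%), and 1 without D5132 (0.833%). It was 5 in the fit of all 11 libraries (2.72%), 7 with DESeq2 (5.43%) and 7 without the filter (3.18%). Of 15 enzymes of sphingolipid metabolism outside the members, 0 passed in either tissue (2 in the CA1 and 3 in the neocortex at an unadjusted p under 0.05). Among them were Galc, which breaks down galactosylceramide, at 0.20 (SE 0.087, edgeR adjusted p = 0.259) in the CA1, and Ugcg, which makes glucosylceramide, at 0.20 (SE 0.054, edgeR adjusted p = 0.0776) in the neocortex. Of 19 signals and receptors that act on oligodendrocytes, 1 fell in the CA1, Erbb3, a receptor subunit for neuregulin, by 0.59 (SE 0.14, edgeR adjusted p = 0.0272), and 0 passed in the neocortex. A count of 1 of 19 is near the share of all genes called in the CA1. Erbb3 was counted at 12.8, 17.1 and 15.2 CPM in control CA1, against 10.1 and 10.00 CPM in KO CA1, so both KO libraries lay below every control. The count on this list was 0 without D5138 (1.36% of all genes called) and in the fit of all 11 libraries (3.51%). It was 2 without D5135 (3.06%), 3 without D5134 (4.04%) and 6 without the filter (5.61%).

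Markers of other cell types moved in the CA1 as well, where 3.89% of all genes were called. Their part in the fall of the myelin genes was not tested. Of 10 genes of activated microglia, 9 rose, and their summed level was 1207 to 1306 CPM in the controls and 1774 to 1923 CPM in the KO libraries. Most of that sum was Apoe, with means of 1175 CPM in the controls and 1684 CPM in the KO libraries. Trem2, for comparison, had means of 10.3 and 20.9 CPM. Of 8 astrocyte markers, 2 rose, Gfap by 0.96 (SE 0.070, edgeR adjusted p = 1.39e-05) and Aqp4 by 0.32 (SE 0.081, edgeR adjusted p = 0.0454), and the sum was 2368 to 2459 CPM against 2888 to 3108 CPM. Of 5 meningeal fibroblast markers, 1 rose (Col1a2), with sums of 47.3 to 54.3 CPM against 95.0 to 108 CPM, and of 4 pericyte markers, 1 rose (Vtn), with sums of 145 to 159 CPM against 179.7 to 189 CPM. These sums did not overlap between the groups. Among single genes tested in the CA1, 16.3% did not overlap in the lower direction alone, so separation by itself is common with so few libraries. Of 8 microglia markers, 2 rose, with sums of 305 to 325 CPM against 339 to 396 CPM, and of 6 endothelial markers, 1 rose (Pecam1), with sums of 133 to 159 CPM against 150.03 to 150.34 CPM.

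Some neuron markers fell in the CA1, where 1.41% of all genes fell. Of 7 markers of excitatory neurons, 2 fell, with sums of 5245 to 5909 CPM in the controls and 4696 to 5149 CPM in the KO libraries. Of 4 markers of CA1 pyramidal neurons, 2 fell, with sums of 386 to 447 CPM against 254 to 266 CPM. Of 7 markers of inhibitory neurons, 0 passed. In the neocortex, where 2.71% of all genes were called, 8 of 10 genes of activated microglia rose. Their sums were 1095 to 1258 CPM in the controls and 1327 to 1531 CPM in the KO libraries. Most of these sums was Apoe, with means of 1096 and 1321 CPM, which did not pass (edgeR adjusted p = 0.0508). Of the neuron markers there, 2 of 7 of excitatory neurons fell (sums of 5618 to 5693 CPM against 4881 to 4993 CPM), 2 of 6 of striatum (141 to 166 CPM against 118 to 121 CPM) and 1 of 3 measured of CA1 pyramidal neurons (142 to 169 CPM against 105 to 116 CPM). No astrocyte, inhibitory neuron or endothelial marker passed in the neocortex. Their sums did not overlap either, at 2280.3 to 2356 CPM against 2395 to 2693 CPM for astrocytes, 1166 to 1187 CPM against 1228 to 1276 CPM for inhibitory neurons and 181 to 216 CPM against 177 to 179 CPM for endothelium. Among single genes tested in the neocortex, 12.4% did not overlap in the lower direction alone. Schwann cells make peripheral myelin, and their marker Pmp2 was at 0 reads in 8 of the 11 libraries, with at most 6 reads in any.

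**Figure D4:**
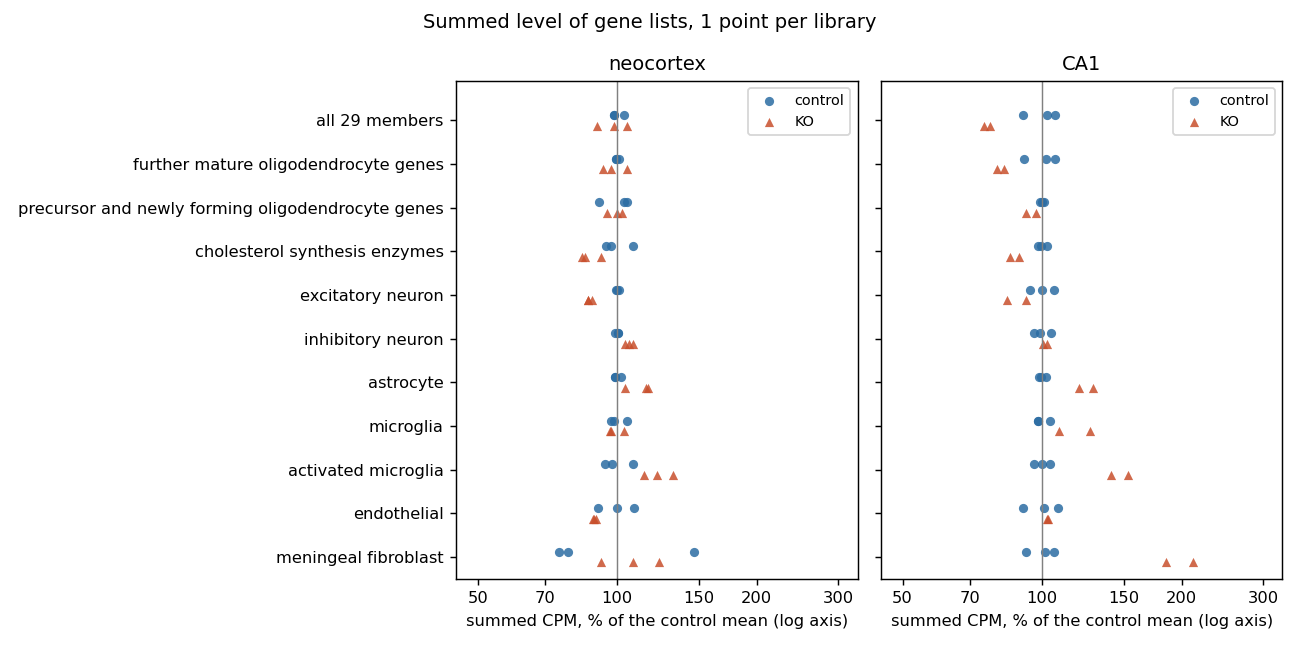
Points give the summed CPM of each gene list in each library as a percentage of the mean of the controls of the same tissue, on a log axis; circles are control and triangles KO libraries. In the CA1 the sums of the 29 genes are 77.2% and 75.1% of the control mean in the KO libraries D5130 and D5133, and in the neocortex the KO libraries lie between 90.5% and 105%.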

How the data were processed

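RNA-seq counts of 11 libraries from 7 animals were analysed. The deposited values are whole-number read counts per Ensembl gene, with no normalization, and the table held 39109 entries, 92 of them ERCC RNAs. Per the labels' protocols, RNA was extracted with TRIzol, and the neocortex libraries were stranded and carried ERCC spike-ins while the CA1 libraries were unstranded. The submitters' processing notes name GSNAP, SAMtools, bedtools and FastQC and the build GRCm38. Tool versions, the counting rule and its strand setting are not given in the sources used here. Symbols, positions and exon lengths came from GENCODE M21 (96.4% of identifiers matched; the rest took up to 0.507% of reads).

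KO and control were compared within each tissue on all genes with edgeR 4.0.16 in R 4.3.3 (TMM, filterByExpr, robust quasi-likelihood F-test, two-sided, Benjamini-Hochberg over all genes tested, threshold 0.05), and the difference between the tissues as an interaction over the 11 libraries. DESeq2 1.42.0 was an alternative; others were RLE scaling, no filter, a mean of at least 1 CPM, each library left out, 1 fit of all libraries, spike-in sets, ERCC scaling and the animal as a block. The method was tested on simulated data. The SE was obtained from the fold change and its F. CPM uses TMM-scaled totals. No correction for length or GC content was made. The labels do not say how tissue was dissected, and p-values measure the spread between these animals.

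The labels name the same animal for both tissues of 4 animals. On that ground the animal was read as a pairing, and the block is given beside the interaction. Deviations from the group mean correlated between the tissues of 1 animal with r of 0.18, 0.21, 0.15 and 0.14; with 2 shared animals a genotype, the values of a genotype's animals are not independent.

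The 29 members, their roles and the other lists were chosen with earlier results of these data known, so no list was tested and no p was adjusted over a list alone. Values of every library are given for members that passed in any of the 3 edgeR comparisons reported, for the 2 members of each role with the smallest p in each tissue, and for the member of each role with the highest level per length. Of other lists, up to 4 genes that passed are named, or up to 2 where none did. Genes named beyond this rule were picked after their values were seen. A few members of the other gene lists are counted but not reported here.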

Additional observations from a re-analysis of the deposited data

How the results depend on the processing

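In the CA1 the number of members that fell was 23 with DESeq2 (5.06% of all genes called) and 26 without the filter on low counts (5.61%), beside 15 in the fit reported (3.89%), and between 7 and 23 with each library left out in turn (1.23% to 4.04%). The lowest was without the KO D5133 (7), then without the KO D5130 (9), and the highest without the control D5134 (23). The CA1 median of the transcription factors lay between -0.45 and -0.26 with each library left out. The interaction gave 7 members with DESeq2 (0.826% of all genes called), 13 without the filter (0.869%), 2 with the replicate block (0.592%) and 0 to 2 with each library left out, beside 0 (0.0935%); the 2 arose without the CA1 control D5134 (0.161%). Within the second spike-in set alone, the neocortex median was 0.026 for all 29, 0.0015 for the structural genes and 0.037 for the lipid genes, above zero where the fit reported was below. The causes were not tested, except that a fit without a library has fewer samples. Taking each member under each alternative, the CA1 call was kept in 236 cases, gained in 32 and lost in 22, the interaction call was kept in 440 and gained in 24, and the neocortex call was kept in 435. No member that passed in either fit changed direction. The animals pair only the tissues, so the block applied to the interaction alone, where it changed no call of a member other than Mal and Tspan2. The number of genes called over all tests was 19 in the neocortex without D5133 and 244 and 232 in the CA1 without D5138 and D5133, beside 460 and 710. The SE of the members in the CA1 ran from 0.064 (Mobp) to 0.18 (Opalin), and the part of depth in it was not tested.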
